A study of Danio rerio with 6 samples.

Results

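Trunk neural crest from zebrafish embryos kept in cyclopamine was compared with trunk neural crest from untreated embryos. RNA sequencing counts of sorted cells were used from 2 cyclopamine libraries (replicates 3 and 4) and 2 untreated libraries (replicates 1 and 2), which are 4 of the 6 libraries of the series. The remaining 2 libraries hold slow muscle from untreated embryos and served here only to estimate the spread between replicates. All genes with at least 10 counts in 2 or more of the 4 neural crest libraries were taken, which gave 15419 of 32520 genes. Of these, 2068 reached that count in exactly 2 libraries, with a median of 116 counts over the 4 libraries, while 3186 genes reached it in 1 library only, with a median of 42 counts, and were left out.

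The cyclopamine embryos had been exposed to 100 µM of the compound from 50% epiboly, a stage of gastrulation, until 24 hours post fertilization, and the untreated embryos received no treatment; a vehicle for the untreated embryos is not stated. Embryos of both groups had an age of 24 hours post fertilization, were reared at 28 °C and are labelled wild type. Per the series' design text they carried the transgenes tg(sox10:mRFP), which labels neural crest, and tgPAC(prdm1a:eGFP), which labels slow-twitch muscle. Trunks were dissected by hand, dissociated and sorted by flow cytometry. How many embryos were pooled, and whether the replicates came from separate clutches, is not stated, and p-values therefore measure only the spread between these libraries, which may be technical. Both untreated titles also read slow-twitch, although tissue and source are given as neural crest.

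Neural crest cells leave the dorsal neural tube, migrate through the trunk along the somites and form pigment cells, sensory and sympathetic neurons and glia. Hedgehog proteins, secreted in the trunk by the notochord and floor plate, bind Patched receptors and so release Smoothened, which switches on Gli transcription factors. Patched, Gli1 and the ligand-binding antagonist Hhip are themselves induced by the pathway and serve as its readout. Cdon and Boc are co-receptors that present Hedgehog to Patched, and mutations in both genes are the subject of the study's title. Cyclopamine binds Smoothened and blocks it. The comparison asks which transcripts of trunk neural crest differ when the pathway is blocked from gastrulation onward.

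Most crest transcripts were present in all 4 libraries. Of 22 tested crest genes 2 had 0 counts in cyclopamine replicate 4, and 0 of them did in each other library. The crest regulator sox10 stood at 2605 and 4081 CPM (counts per 1000000 of the TMM-scaled library size) in cyclopamine replicates 3 and 4, against 3302 and 3190.3 CPM in untreated replicates 1 and 2, and the groups overlapped. Within a group, values are given in the order of the replicate numbers throughout. The slow muscle regulator prdm1a, the gene of the other reporter, stood at 102 and 205 CPM in the cyclopamine libraries against 146 and 133 CPM in the untreated libraries, also with overlap. Total counts were 20973884 and 18781774 in the cyclopamine libraries against 17504692 and 15355583 in the untreated libraries.

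Cyclopamine replicate 4 stood apart in the number of genes found. Among the tested genes 2892 (18.8%) were at 0 counts in cyclopamine replicate 4 and 774 (5.02%) in cyclopamine replicate 3, against 990 and 1262 in the untreated libraries. Of the genes with at least 100 counts in the other 3 neural crest libraries, 349 were at 0 in cyclopamine replicate 4 and 22 in cyclopamine replicate 3, against 14 and 33 in the untreated libraries. The number of genes per count value had a local peak at 99 counts (4.71 CPM) in cyclopamine replicate 4 and at 39 counts (1.76 CPM) in cyclopamine replicate 3, against 36 and 40 counts (1.90 and 2.38 CPM) in the untreated libraries. Levels of a few CPM, and zeros most of all, are thus poorly determined, and groups at 0 are given as levels with no fold. Under a count of 0, up to 3 counts remain possible, which is 0.135 and 0.143 CPM in the cyclopamine libraries against 0.159 and 0.179 CPM in the untreated libraries, by counting error only.

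No gene passed edgeR's quasi-likelihood test in either direction (0 higher and 0 lower, 0% of 15419 each, at a Benjamini-Hochberg adjusted p under 0.05), and the smallest adjusted p was 0.314. At an unadjusted p under 0.05 there were 424 higher and 281 lower genes, 2.75% and 1.82% of those tested. DESeq2, run as an alternative, called 142 genes higher and 141 lower (0.921% and 0.914%). Of its calls, 82 higher ones had 0 counts in both untreated libraries and 89 lower ones had 0 counts in both cyclopamine libraries. limma-voom with sample quality weights called none in either direction, with 541 higher and 173 lower genes at an unadjusted p under 0.05, and gave the cyclopamine libraries weights of 0.440 and 0.442 against 1.76 and 1.82 for the untreated libraries. Without cyclopamine replicate 3 edgeR called 280 genes higher and 778 lower, with the lone cyclopamine library assumed to vary like the other groups, and a median log2 fold change over all tested genes of -0.32. Without a filter on low counts it called 5 higher and 10 lower. Genes are therefore described by their level in every library, and "above" or "below" means that both cyclopamine libraries lay on that side of both untreated libraries. Over all tested genes 2515 lay above (16.3%) and 2893 below (18.8%), which is the background for every such count. The median log2 fold change over all tested genes was -0.00381.

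Hedgehog target genes lay lower in the cyclopamine libraries, while most other tested components of the pathway lay higher. Of 5 tested target genes 4 lay below and 0 above, against backgrounds of 18.8% and 16.3%. The transcription factor gene gli1 stood at 16.7 and 27.9 CPM in the cyclopamine libraries against 43.8 and 47.2 CPM in the untreated libraries (log2 fold change -1.03 ± 0.38 (SE), edgeR adjusted p = 0.999). Both cyclopamine values lay below both untreated ones, and neither edgeR nor DESeq2 (its adjusted p = 0.648) called it. The antagonist gene hhip stood at 5.68 and 0.714 CPM in the cyclopamine libraries against 26.3 and 27.3 CPM in the untreated libraries (log2 fold change -3.06 ± 0.90 (SE), edgeR adjusted p = 0.835; DESeq2 adjusted p = 0.0283). hhip was thus lower in cyclopamine replicate 4 than in replicate 3, where it already lay well below both untreated values, and DESeq2 called it. The receptor gene ptch1 did not follow, with 34.8 and 56.2 CPM in the cyclopamine libraries against 51.5 and 53.4 CPM in the untreated libraries. Its value lay lower in cyclopamine replicate 3 and higher in replicate 4 than in either untreated library. foxf1, a forkhead gene induced by Hedgehog in mesoderm, had 0 counts in both cyclopamine libraries and 1.96 and 4.23 CPM in the untreated libraries, close to the range where zeros are common. In bulk libraries of this kind, fewer cells of a type and less RNA per cell cannot be told apart.

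Of 18 tested Hedgehog pathway components 12 lay above and 0 below, with a median log2 fold change of 0.90. In cyclopamine replicate 3 alone 16 of the 18 lay above both untreated libraries, and in cyclopamine replicate 4 alone 12, where 38.6% and 35.8% of all tested genes did. No component was called by edgeR and 2 were called higher by DESeq2, gli2a and scube1. The Gli activator gene gli2a stood at 264 and 499 CPM in the cyclopamine libraries against 149 and 118 CPM in the untreated libraries (log2 fold change 1.51 ± 0.39 (SE), edgeR adjusted p = 0.754; DESeq2 adjusted p = 0.0367). scube1, which encodes a secreted protein that helps release lipid-bearing Hedgehog, stood at 13.3 and 25.9 CPM in the cyclopamine libraries against 1.69 and 3.16 CPM in the untreated libraries (log2 fold change 3.01 ± 0.78 (SE), edgeR adjusted p = 0.75; DESeq2 adjusted p = 0.0187). Both untreated values of scube1 lay in the poorly determined range. The paralogue gli2b stood at 29.3 and 21.1 CPM in the cyclopamine libraries against 7.24 and 12.6 CPM in the untreated libraries, and the gene of the mainly repressing factor gli3 at 25.6 and 49.3 CPM against 15.9 and 22.0 CPM. Both lay above without a call from either tool.

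The co-receptor genes of the study's title lay slightly above. cdon stood at 167 and 265 CPM in the cyclopamine libraries against 101 and 141 CPM in the untreated libraries (log2 fold change 0.83 ± 0.36 (SE), edgeR adjusted p = 0.999). boc stood at 88.7 and 77.6 CPM in the cyclopamine libraries against 63.1 and 57.5 CPM in the untreated libraries (log2 fold change 0.46 ± 0.31 (SE), edgeR adjusted p = 0.999). For cdon the gap between the lowest cyclopamine value and the highest untreated value was smaller than the gap between the cyclopamine libraries themselves. A further co-receptor gene, gas1b, stood at 22.6 and 40.3 CPM in the cyclopamine libraries against 14.7 and 6.85 CPM in the untreated libraries. smo, which encodes the protein that cyclopamine binds, stood at 145 and 147 CPM in the cyclopamine libraries against 131 and 129 CPM in the untreated libraries (log2 fold change 0.16 ± 0.35 (SE), edgeR adjusted p = 0.999). Although its values did not overlap, the difference was small next to its standard error. The signal gene shha lay above as well, but at 6.36 and 80.0 CPM in the cyclopamine libraries against 3.17 and 0.179 CPM in the untreated libraries, it was high in cyclopamine replicate 4 only, the library in which other notochord transcripts were high too.

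**Figure D1:**
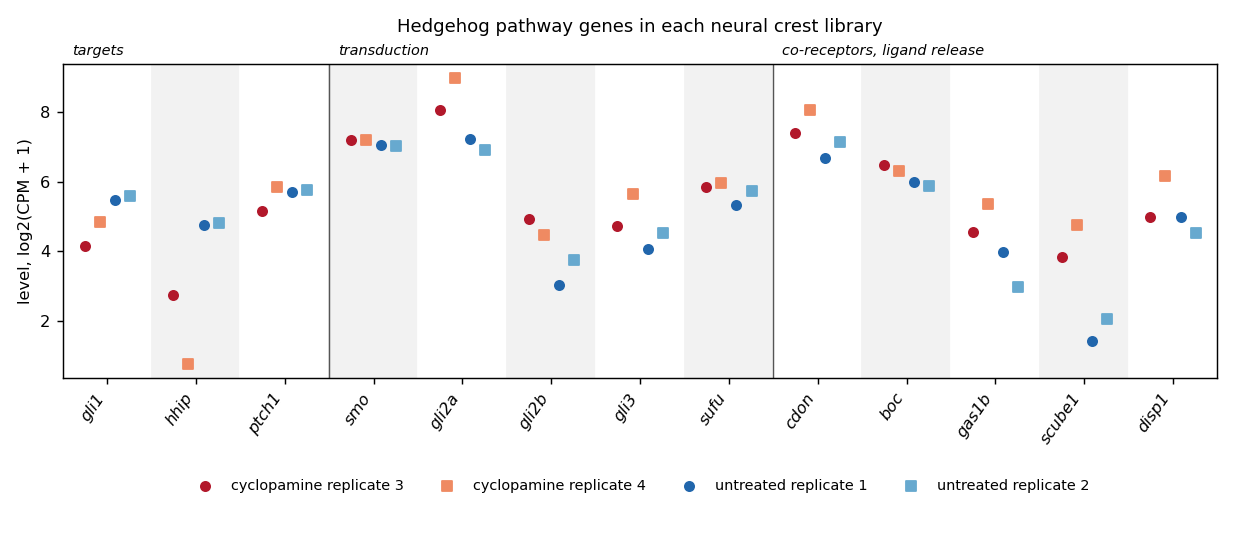
Level of 13 Hedgehog pathway genes, as log2(CPM + 1), in cyclopamine replicates 3 and 4 (red and orange) and untreated replicates 1 and 2 (dark and light blue); each point is 1 library. gli1 and hhip are lower in both cyclopamine libraries, ptch1 overlaps, and gli2a, gli2b, gli3, cdon, boc, gas1b and scube1 lie above both untreated libraries.

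Several feedback genes of the receptor tyrosine kinase and ERK pathway lay lower in both cyclopamine libraries, while the pathway's list as a whole did not. The list was drawn up with earlier results known. dusp6, dusp4, spry4 and fosl1a are named as its most abundant members, and the other genes were named after their values were seen. Dusp4 and Dusp6 are phosphatases that switch off ERK-type kinases, Spry4 restrains signalling upstream of them, and all are transcribed in response to Fgf and related signals. dusp6 stood at 169 and 159 CPM in the cyclopamine libraries against 549 and 583 CPM in the untreated libraries (log2 fold change -1.78 ± 0.28 (SE), edgeR adjusted p = 0.416; DESeq2 adjusted p = 1.44e-08). dusp4 stood at 135 and 108 CPM in the cyclopamine libraries against 447 and 487 CPM in the untreated libraries (log2 fold change -1.94 ± 0.31 (SE), edgeR adjusted p = 0.416; DESeq2 adjusted p = 1.43e-06). spry4 stood at 190.5 and 129 CPM in the cyclopamine libraries against 509 and 506 CPM in the untreated libraries (log2 fold change -1.67 ± 0.32 (SE), edgeR adjusted p = 0.568; DESeq2 adjusted p = 0.000126). For these 3 genes the libraries of a group lay close together and far from the other group. fosl1a did not follow, with 97.5 and 499 CPM in the cyclopamine libraries against 342 and 369 CPM in the untreated libraries. The immediate early transcription factor gene egr2a stood at 4.33 and 6.09 CPM in the cyclopamine libraries against 19.1 and 24.7 CPM in the untreated libraries (log2 fold change -2.07 ± 0.47 (SE), edgeR adjusted p = 0.627; DESeq2 adjusted p = 0.022). The whole Fgf and ERK list did not share this: of 31 tested members 6 lay above and 7 below, and the median log2 fold change was -0.06. On the higher side were the receptor gene fgfr1a, at 78.9 and 111 CPM in the cyclopamine libraries against 50.6 and 46.6 CPM in the untreated libraries, and the ligand genes fgf8a and fgf24. fgf8a stood at 11.3 and 4.62 CPM and fgf24 at 2.30 and 5.80 CPM in the cyclopamine libraries, and both genes had 0 counts in both untreated libraries. DESeq2 called dusp6, dusp4, spry4 and egr2a lower and fgf8a and fgf24 higher.

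Immediate early and stress genes lay lower more often than the background. Of 32 tested members 13 lay below and 2 above, with a median log2 fold change of -0.43, and 2 (cebpb and egr2a) were called lower by DESeq2. cebpb, which encodes a C/EBP transcription factor of acute responses and of myeloid cells, stood at 5.46 and 8.56 CPM in the cyclopamine libraries against 53.4 and 54.7 CPM in the untreated libraries (log2 fold change -2.95 ± 0.45 (SE), edgeR adjusted p = 0.416; DESeq2 adjusted p = 1.01e-05). The AP-1 component gene junbb stood at 494 and 733 CPM in the cyclopamine libraries against 1105 and 1312 CPM in the untreated libraries. The stress factor gene atf3 stood at 153 and 667 CPM in the cyclopamine libraries against 1141 and 1152 CPM in the untreated libraries. For atf3 the untreated libraries were nearly equal and the cyclopamine libraries spread over a wide range below them. The antiproliferative gene btg2, named after its values were seen, stood at 196 and 147 CPM in the cyclopamine libraries against 331 and 392 CPM in the untreated libraries. The list's most abundant members are hspa8, junbb, klf6a and atf3, of which hspa8 and klf6a overlapped between the groups. hspa8 stood at 8893 and 6643 CPM in the cyclopamine libraries against 7541 and 7714 CPM in the untreated libraries. For klf6a the values were 402 and 1058 CPM against 889 and 983 CPM. cebpb is also on the myeloid list, of which 7 of 10 genes lay below, and the part of myeloid cells in its value was not tested.

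Several other genes, of varied function, were called lower by DESeq2. The Ets factor gene ets2 stood at 2.07 and 3 CPM in the cyclopamine libraries against 19.4 and 48.2 CPM in the untreated libraries (DESeq2 adjusted p = 1.58e-05). The polyamine genes odc1 and sat1a.2 encode the enzyme that starts polyamine synthesis and one that acetylates polyamines for breakdown. odc1 stood at 232 and 188 CPM in the cyclopamine libraries against 479 and 575 CPM in the untreated libraries (DESeq2 adjusted p = 0.00996), and sat1a.2 at 18.4 and 16.2 CPM against 79.6 and 82.4 CPM (DESeq2 adjusted p = 1.61e-07). Both polyamine genes lay lower in each cyclopamine library. The T-box gene tbx2b stood at 19.9 and 27.7 CPM in the cyclopamine libraries against 123 and 71.3 CPM in the untreated libraries (DESeq2 adjusted p = 0.0333). The G protein regulator gene rgs3a stood at 107 and 66.9 CPM in the cyclopamine libraries against 242 and 328 CPM in the untreated libraries (DESeq2 adjusted p = 0.00837). None of these genes had an edgeR adjusted p under 0.314.

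**Figure D2:**
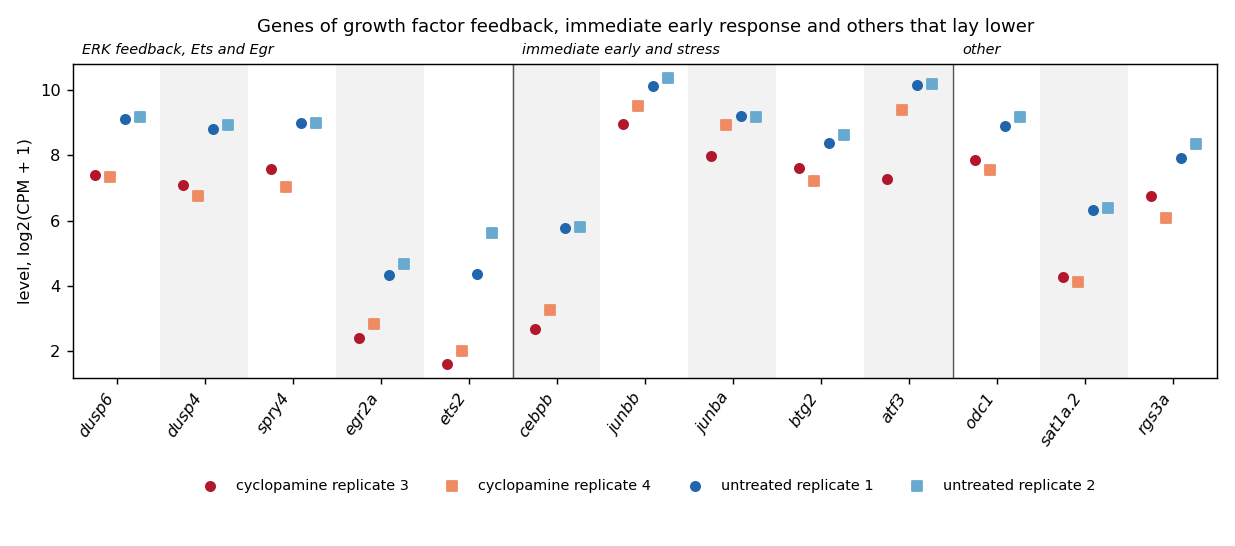
Level of 13 genes that lay below in the cyclopamine libraries, as log2(CPM + 1), 1 point per library, with cyclopamine replicates 3 and 4 in red and orange and untreated replicates 1 and 2 in dark and light blue. dusp6, dusp4, spry4, cebpb and sat1a.2 show libraries of a group close together, while atf3 and junba differ between the cyclopamine libraries.

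Genes of the extracellular matrix lay higher in the cyclopamine libraries more often than the background. The matrix around the neural tube and somites, with fibronectin, collagens and laminins, is the surface on which crest cells migrate. Of 32 tested fibronectin, fibrillin and related matrix genes 20 lay above and 2 below, with a median log2 fold change of 1.09. Of 30 collagen genes 14 lay above and 0 below (median 1.12), and of 30 laminin, nidogen and integrin genes 9 lay above and 2 below (median 0.57). edgeR called none of these genes, and DESeq2 called 3, 6 and 3 of them higher and 0 lower. Of the most abundant matrix genes, fbn2b, fstl1b and fn1b lay above and postnb below. postnb stood at 315 and 290 CPM in the cyclopamine libraries against 343 and 459 CPM in the untreated libraries. In cyclopamine replicate 3 fbn2b lay only just above. Of the most abundant collagen genes, col2a1a lay above, and col12a1a, col5a2a and col11a1a overlapped. In cyclopamine replicate 3 col12a1a and col5a2a lay below both untreated libraries. The laminin, nidogen and integrin list lay higher mainly in cyclopamine replicate 4. Its median log2 ratio to the untreated mean (CPM + 1) was 0.05 in cyclopamine replicate 3 and 0.83 in replicate 4. In replicate 3 alone 13 of its 30 genes lay above both untreated libraries, and in replicate 4 alone 18. Over all tested genes 38.6% and 35.8% did. Of its most abundant members lamc1, itgb1a and lama1 overlapped between the groups, while agrn lay above. Markers of other mesenchymal cells also lay above in part. Of 11 sclerotome and fibroblast genes 5 lay above and 2 below, with medians of the log2 ratio to the untreated mean (CPM + 1) of 1.28 in cyclopamine replicate 3 and -0.46 in replicate 4, and their summed level was 1464 and 848 CPM in the cyclopamine libraries against 767 and 903 CPM in the untreated libraries. Of these 11 genes 3 are also on the matrix list and 3 on the collagen list. Of 16 presomitic mesoderm genes 5 lay above and 2 below, with medians of 1.28 in cyclopamine replicate 3 and -0.52 in replicate 4. The part of these cell types in the matrix values was not tested.

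fstl1a, which encodes a secreted follistatin-like glycoprotein, had the smallest DESeq2 adjusted p of the genes named here. It stood at 45.9 and 44.4 CPM in the cyclopamine libraries against 6.61 and 6.49 CPM in the untreated libraries (log2 fold change 2.79 ± 0.30 (SE), edgeR adjusted p = 0.314; DESeq2 adjusted p = 9.8e-13). The libraries of each group were nearly equal. The fibronectin gene fn1b stood at 156 and 318 CPM in the cyclopamine libraries against 41.1 and 48.3 CPM in the untreated libraries (log2 fold change 2.41 ± 0.43 (SE), edgeR adjusted p = 0.5; DESeq2 adjusted p = 0.00022), and its paralogue fn1a at 136 and 220.0 CPM against 66.9 and 97.3 CPM (log2 fold change 1.11 ± 0.37 (SE), edgeR adjusted p = 0.953). Both lay above, and the difference was larger for fn1b. The hyaluronan link protein gene hapln1a stood at 91.4 and 132 CPM in the cyclopamine libraries against 52.3 and 53.7 CPM in the untreated libraries. emilin3a, a matrix glycoprotein gene active in the notochord, stood at 28.0 and 415 CPM in the cyclopamine libraries against 6.61 and 5.18 CPM in the untreated libraries, with most of the difference in cyclopamine replicate 4.

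Of the 4 type IV collagen chains on the collagen list, which form basement membranes, col4a1, col4a5 and col4a6 lay above in both cyclopamine libraries and col4a2 did not, with 21.2 and 0 CPM in the cyclopamine libraries against 2.85 and 13.9 CPM in the untreated libraries. col4a1 stood at 23.1 and 24.7 CPM in the cyclopamine libraries against 3.65 and 5.54 CPM in the untreated libraries (log2 fold change 2.38 ± 0.34 (SE), edgeR adjusted p = 0.4; DESeq2 adjusted p = 3.13e-06). The chain genes col4a5 and col4a6 stood at 150.4 and 244 CPM and 141 and 285 CPM in the cyclopamine libraries, against 44.8 and 69.4 CPM and 75.2 and 79.7 CPM in the untreated libraries. DESeq2 called col4a1 and col4a5 (adjusted p = 0.00664) and not col4a6 (adjusted p = 0.0944). The fibrillar collagen gene col5a1 stood at 207 and 238 CPM in the cyclopamine libraries against 96.8 and 93.4 CPM in the untreated libraries (DESeq2 adjusted p = 0.0101). The basement membrane linker genes nid1a and nid2a stood at 63.9 and 29.4 CPM and 306 and 464 CPM in the cyclopamine libraries, against 9.04 and 5.72 CPM and 182 and 202 CPM in the untreated libraries. nid1a was higher in cyclopamine replicate 3 and nid2a in replicate 4, so the libraries did not share 1 order. The integrin gene itga3b, a laminin receptor chain, stood at 22.4 and 13.5 CPM in the cyclopamine libraries against 4.07 and 2.86 CPM in the untreated libraries (log2 fold change 2.37 ± 0.45 (SE), edgeR adjusted p = 0.554; DESeq2 adjusted p = 0.000698). The laminin chain gene lama5 stood at 72.4 and 375 CPM in the cyclopamine libraries against 23.5 and 38.5 CPM in the untreated libraries.

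Part of the collagen signal belonged to cyclopamine replicate 4. The summed level of the collagen list was 3575 and 12727 CPM in the cyclopamine libraries against 2523 and 2482 CPM in the untreated libraries. col2a1a, the cartilage and notochord collagen gene, made up 91.4 and 3631 CPM of it in the cyclopamine libraries against 77.9 and 59.7 CPM in the untreated libraries. Without the 2 members that are also on the notochord list (col2a1a and col8a1a), 12 of 28 collagen genes lay above and 0 below, and the sum was 3473 and 8676 CPM in the cyclopamine libraries against 2437 and 2418 CPM in the untreated libraries. Cyclopamine replicate 4 thus remained the highest, with col11a1a at 138 and 1329 CPM in the cyclopamine libraries against 168 and 131 CPM in the untreated libraries and col2a1b at 193 and 998 CPM against 62.2 and 70.3 CPM. In cyclopamine replicate 3 alone 19 of 30 collagen genes and 23 of 32 fibronectin and matrix genes lay above both untreated libraries, where 38.6% of all tested genes did. In cyclopamine replicate 4 alone the counts were 24 and 26, where 35.8% of all tested genes did.

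**Figure D3:**
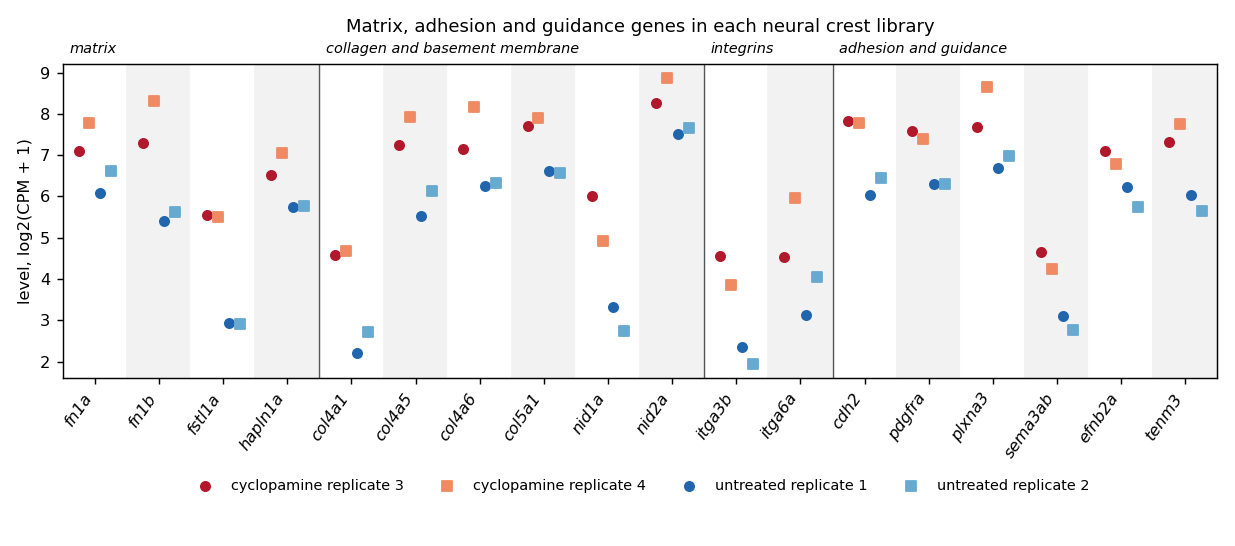
Level of 18 matrix, integrin, adhesion and guidance genes, as log2(CPM + 1), 1 point per library, with cyclopamine replicates 3 and 4 in red and orange and untreated replicates 1 and 2 in dark and light blue. Only genes with both cyclopamine libraries above both untreated libraries are drawn, and members of the same lists that overlapped or lay below are left out. For fstl1a and col4a1 the cyclopamine libraries are nearly equal.

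Adhesion and guidance genes also lay above more often than below. Of 66 tested members of the migration and guidance list 20 lay above and 4 below, with a median log2 fold change of 0.81; edgeR called none, and DESeq2 called 3 higher (cdh2, pdgfra and sema3e) and 1 lower (pdgfc). N-cadherin, encoded by cdh2, is a cell adhesion protein whose level is controlled as crest cells leave the neural tube. cdh2 stood at 226 and 218 CPM in the cyclopamine libraries against 64.4 and 86.3 CPM in the untreated libraries (log2 fold change 1.56 ± 0.31 (SE), edgeR adjusted p = 0.578; DESeq2 adjusted p = 0.000332). The platelet-derived growth factor receptor gene pdgfra, active in mesenchyme and in migrating crest, stood at 192 and 166 CPM in the cyclopamine libraries against 78.4 and 77.9 CPM in the untreated libraries (log2 fold change 1.19 ± 0.30 (SE), edgeR adjusted p = 0.728; DESeq2 adjusted p = 0.0156). The gene of one of its ligands, pdgfc, lay on the other side, with 0.0451 and 0 CPM in the cyclopamine libraries against 13.6 and 8.63 CPM in the untreated libraries (DESeq2 adjusted p = 2.57e-05). cdh2 and pdgfra were nearly equal in both cyclopamine libraries.

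Among guidance receptors, the semaphorin receptor gene plxna3 stood at 204 and 402 CPM in the cyclopamine libraries against 103 and 125 CPM in the untreated libraries (log2 fold change 1.41 ± 0.41 (SE), edgeR adjusted p = 0.833). The Slit receptor gene robo3 stood at 227 and 548 CPM in the cyclopamine libraries against 173 and 182 CPM in the untreated libraries, and the ligand gene slit3 at 81.2 and 223 CPM against 29.4 and 59.1 CPM. plxna3, robo3 and slit3 lay above, with the higher value in cyclopamine replicate 4. The other most abundant members of the list beside robo3 and plxna3 are cdh6 and plxnb1a, and both overlapped between the groups. cdh6 stood at 493 and 240 CPM in the cyclopamine libraries against 309.5 and 331 CPM in the untreated libraries. For plxnb1a the values were 131 and 374 CPM against 160 and 179 CPM. The semaphorin genes sema3ab and sema3e, which encode secreted guidance cues, stood at 24.0 and 18 CPM and 7.08 and 5.76 CPM in the cyclopamine libraries, against 7.56 and 5.78 CPM and 1.16 and 0.774 CPM in the untreated libraries. The ephrin gene efnb2a stood at 136 and 109 CPM in the cyclopamine libraries against 73.6 and 52.4 CPM in the untreated libraries, and the Eph receptor gene epha4a at 35.1 and 99.6 CPM against 19.7 and 7.26 CPM. Of these guidance genes only sema3e was called, by DESeq2 (adjusted p = 0.0146).

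Hox genes differed by their position in the cluster, with the clearer difference among anterior genes. Hox genes of low number are active from the hindbrain and anterior trunk backward, and those of high number only in the posterior trunk and tail. Of 20 anterior Hox genes 11 lay above and 0 below (median log2 fold change 0.90). Of 13 central ones 3 lay above and 2 below (median -0.05), and of 13 posterior ones 1 lay above and 5 below (median -0.45). hoxb3a stood at 142 and 232 CPM in the cyclopamine libraries against 79.4 and 59.9 CPM in the untreated libraries (log2 fold change 1.42 ± 0.39 (SE), edgeR adjusted p = 0.787). hoxa4a stood at 108 and 214 CPM in the cyclopamine libraries against 66.2 and 75.6 CPM in the untreated libraries (log2 fold change 1.18 ± 0.47 (SE), edgeR adjusted p = 0.999). Both lay above in each cyclopamine library, as did hoxc8a on the central list, with 57.4 and 77.1 CPM in the cyclopamine libraries against 22.6 and 28.0 CPM in the untreated libraries. The most abundant anterior genes, hoxc3a and hoxd3a, overlapped between the groups. hoxd3a stood at 64.3 and 281 CPM in the cyclopamine libraries against 94.3 and 93.0 CPM in the untreated libraries. Of the most abundant central genes hoxb7a lay above, hoxd9a lay below, and hoxb9a and hoxb8a overlapped. Among posterior genes, hoxa11b stood at 14.9 and 45.4 CPM in the cyclopamine libraries against 58.8 and 72.1 CPM in the untreated libraries and hoxc11a at 16.7 and 10 CPM against 33.7 and 25.9 CPM. hoxd13a had 0 counts in both cyclopamine libraries and 2.06 and 2.74 CPM in the untreated libraries. The posterior genes hoxd12a and hoxc11b overlapped between the groups. Both list medians kept their sign in each cyclopamine library, at 0.87 and 0.71 for anterior genes and -0.80 and -0.59 for posterior genes (log2 ratio of replicate 3 and of replicate 4 to the untreated mean, CPM + 1). Over all tested genes these medians were 0.04 and -0.30. In each cyclopamine library alone 7 of the 13 posterior genes lay below both untreated libraries and 4 above. Over all tested genes 31.8% lay below in replicate 3 and 44.3% in replicate 4. Of the posterior genes 4 were at 0 in cyclopamine replicate 4. edgeR called no Hox gene, and DESeq2 called 1, hoxd13a, lower (adjusted p = 0.000405).

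Neural crest regulators showed no common direction. Of 22 tested crest genes 5 lay above and 6 below, near the backgrounds of 16.3% and 18.8%. Their median log2 ratio to the untreated mean was 0.05 in cyclopamine replicate 3 and -0.56 in replicate 4. crestin, a transcript found in zebrafish crest cells, stood at 1189 and 1025 CPM in the cyclopamine libraries against 658 and 814 CPM in the untreated libraries (log2 fold change 0.59 ± 0.30 (SE), edgeR adjusted p = 0.999), and the early crest factor gene tfap2a at 892 and 860.0 CPM against 683 and 600.2 CPM. Genes of the crest factors foxd3 and snai2 lay the other way. foxd3 stood at 121 and 82.9 CPM in the cyclopamine libraries against 220.5 and 171 CPM in the untreated libraries (log2 fold change -0.94 ± 0.35 (SE), edgeR adjusted p = 0.999). snai2 stood at 115 and 92.5 CPM in the cyclopamine libraries against 221 and 178 CPM in the untreated libraries (log2 fold change -0.94 ± 0.33 (SE), edgeR adjusted p = 0.993). The cartilage and crest factor gene sox9a stood at 51.7 and 111 CPM in the cyclopamine libraries against 35.9 and 20.5 CPM in the untreated libraries. Neither tool called any crest gene.

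Pigment cell genes lay lower more often than the background, and those of melanophores and iridophores more so in cyclopamine replicate 4. Of 13 melanophore genes 9 lay below and 0 above, of 12 xanthophore genes 8 below and 1 above, and of 11 iridophore genes 5 below and 0 above, with median log2 fold changes of -0.99, -0.84 and -0.62. The melanin synthesis gene tyr stood at 387 and 168 CPM in the cyclopamine libraries against 602 and 497 CPM in the untreated libraries (log2 fold change -0.99 ± 0.48 (SE), edgeR adjusted p = 0.999). The melanosome gene pmela stood at 279 and 48.9 CPM in the cyclopamine libraries against 435 and 349 CPM in the untreated libraries (log2 fold change -1.26 ± 0.81 (SE), edgeR adjusted p = 0.999). Both were lowest in cyclopamine replicate 4. The pteridine synthesis gene gch2, a xanthophore marker, stood at 1011 and 145 CPM in the cyclopamine libraries against 1899.9 and 1914 CPM in the untreated libraries (log2 fold change -1.72 ± 1.63 (SE), edgeR adjusted p = 0.999). pts, the next enzyme of that path, stood at 442 and 294 CPM in the cyclopamine libraries against 831 and 688 CPM in the untreated libraries (log2 fold change -1.04 ± 0.37 (SE), edgeR adjusted p = 0.996). The xanthophore factor gene pax7b stood at 279 and 426 CPM in the cyclopamine libraries against 690.4 and 572 CPM in the untreated libraries, and pax7a at 225 and 231 CPM against 367 and 339 CPM. The purine synthesis gene impdh1b, of the iridophore list, stood at 1919 and 643 CPM in the cyclopamine libraries against 2765 and 2860.2 CPM in the untreated libraries. Not all members followed, and trpm1b, tfec and csf1ra overlapped between the groups. trpm1b, of the melanophore list, stood at 224 and 458 CPM in the cyclopamine libraries against 420.3 and 390.5 CPM in the untreated libraries. For tfec, of the iridophore list, the values were 433 and 213 CPM against 298 and 258 CPM. For csf1ra, of the xanthophore list, they were 94.5 and 218 CPM against 131 and 127 CPM. Neither tool called any pigment gene. The median log2 ratio of melanophore genes to the untreated mean was -0.51 in cyclopamine replicate 3 and -2.42 in replicate 4. For xanthophore genes it was -0.60 and -0.99, and over all tested genes 0.04 and -0.30. In cyclopamine replicate 3 alone 10 of 13 melanophore and 10 of 12 xanthophore genes lay below both untreated libraries, where 31.8% of all tested genes did, and in cyclopamine replicate 4 alone 12 and 8 did, where 44.3% of all tested genes did. Iridophore genes lay lower mostly in cyclopamine replicate 4, with 6 of 11 below in replicate 3 and 10 of 11 below in replicate 4, and medians of the log2 ratio to the untreated mean of -0.09 in replicate 3 and -1.66 in replicate 4.

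Neuronal gene lists showed no common direction. Of 14 tested sensory and autonomic neuron genes 4 lay below and 1 above, against backgrounds of 18.8% and 16.3%. Of the 14, 7 were at 0 in cyclopamine replicate 4. Of 18 general neuron genes 6 lay above and 2 below, with a median log2 fold change of 0.28. Their median log2 ratio to the untreated mean was 1.01 in cyclopamine replicate 3 and -0.80 in replicate 4. On the sensory and autonomic list, ntrk2a and pou4f1 overlapped between the groups. The neuronal differentiation gene neurod1 stood at 6.81 and 13.3 CPM in the cyclopamine libraries against 57.5 and 38.3 CPM in the untreated libraries. The sensory neuron gene prdm12b stood at 54.8 and 20.5 CPM in the cyclopamine libraries against 128 and 64.3 CPM in the untreated libraries. Both lay below without a call. Of 26 Notch pathway genes 7 lay above and 1 below, while the median log2 fold change was -0.19, of the opposite sign. The receptor gene notch2 stood at 164 and 159.6 CPM in the cyclopamine libraries against 65.2 and 82.1 CPM in the untreated libraries (log2 fold change 1.14 ± 0.31 (SE), edgeR adjusted p = 0.779), and the ligand gene jag2b at 50.6 and 53.9 CPM against 27.4 and 22.3 CPM (log2 fold change 1.07 ± 0.32 (SE), edgeR adjusted p = 0.838). Notch effector genes differed between libraries of the same group, with high values in untreated replicate 1 and, for her6 and her9, also in cyclopamine replicate 4. her12 had 2.30 and 37.5 CPM in the cyclopamine libraries against 212 and 2.86 CPM in the untreated libraries. her6 had 84.0 and 353 CPM against 594 and 89.9 CPM, and her9 had 64.6 and 321 CPM against 488 and 58.4 CPM.

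Of the lists of general cell state, the mitochondrially encoded genes lay lower in both cyclopamine libraries, while cell cycle and ribosomal protein genes lay on opposite sides in the 2 libraries. Of 33 cell cycle genes 5 lay above and 2 below. In cyclopamine replicate 3 alone 20 lay above both untreated libraries and 3 below, where 38.6% and 31.8% of all tested genes did. In cyclopamine replicate 4 alone 8 lay above and 21 below, where 35.8% and 44.3% of all tested genes did. The median log2 ratio of cell cycle genes to the untreated mean was 0.31 in replicate 3 and -0.64 in replicate 4. Over all tested genes it was 0.04 and -0.30. Ribosomal protein genes split the same way: in cyclopamine replicate 3 alone 66 of 74 lay above and 3 below, and in cyclopamine replicate 4 alone 0 lay above and 74 below. Of 13 mitochondrially encoded genes 10 lay below and 0 above, and their summed level was 20748 and 10688 CPM in the cyclopamine libraries against 23307 and 25646 CPM in the untreated libraries. The median log2 ratio of these genes to the untreated mean was -0.33 in cyclopamine replicate 3 and -1.62 in replicate 4. Of 18 p53 and apoptosis genes 2 lay above and 4 below, and of 21 cholesterol synthesis genes 1 above and 6 below. Neither tool called a gene of these 5 lists.

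**Figure D4:**
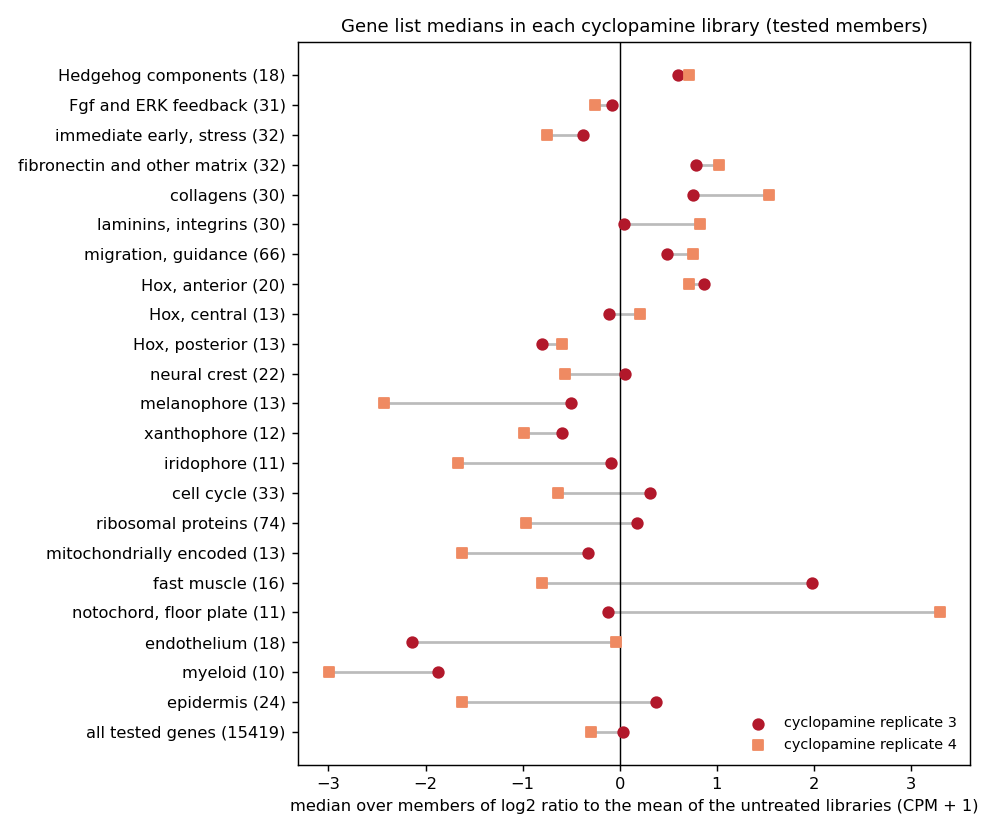
Median over the tested members of each gene list (number in brackets) of the log2 ratio of cyclopamine replicate 3 (red circle) and cyclopamine replicate 4 (orange square) to the mean of the untreated libraries, in CPM + 1; the lowest line gives all tested genes. The medians of Hedgehog components, matrix, collagen, guidance and anterior Hox genes lie above 0 in both libraries, those of pigment lists below 0 in both, and those of fast muscle, notochord, endothelium and ribosomal proteins differ widely between the libraries.

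The cyclopamine libraries differed from each other more than the untreated ones did. Cyclopamine replicate 4 was at least 4-fold above replicate 3 (CPM + 1) for 950 genes (6.16%) and at least 4-fold below it for 2271 (14.7%), while untreated replicate 2 was at least 4-fold above replicate 1 for 468 genes (3.04%) and below it for 545 (3.53%). Against the untreated mean, cyclopamine replicate 3 was at least 4-fold higher for 361 genes (2.34%) and lower for 490 (3.18%), and cyclopamine replicate 4 was higher for 678 (4.40%) and lower for 2008 (13%). The median log2 ratio over all tested genes was 0.04 in cyclopamine replicate 3 and -0.30 in replicate 4, so counts for replicate 4 alone are shifted toward lower values.

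Notochord and cartilage genes were high in cyclopamine replicate 4. Over 11 tested notochord and floor plate genes the median log2 ratio to the untreated mean was -0.12 in cyclopamine replicate 3 and 3.30 in replicate 4. Their summed level was 377 and 5231 CPM in the cyclopamine libraries against 379 and 391 CPM in the untreated libraries. The defining notochord factor gene tbxta stood at 6 and 175 CPM in the cyclopamine libraries against 6.92 and 7.03 CPM in the untreated libraries. The cartilage collagen gene col9a1b stood at 4.06 and 607 CPM in the cyclopamine libraries against 19.1 and 15.5 CPM in the untreated libraries. The ratios of cyclopamine replicate 4 to replicate 3 were ranked among genes with at least 100 counts in both untreated libraries. The largest belonged to col9a1b, cbx7a, loxl3a, col2a1a, col5a3a, icam3, crebrf, SBNO2, mvp and pxdc1b. Of these, cbx7a, loxl3a, icam3 and pxdc1b had 0 counts in cyclopamine replicate 3, and cbx7a stood at 56.5, loxl3a at 44.2 and icam3 at 36.1 CPM in replicate 4. The part of notochord cells in the cyclopamine against untreated values of other genes was not tested.

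Fast muscle genes were high in cyclopamine replicate 3. Of 16 tested fast muscle genes 15 lay above both untreated libraries in cyclopamine replicate 3 alone and 4 in replicate 4 alone. Over all tested genes 38.6% and 35.8% did so. The median log2 ratio of fast muscle genes to the untreated mean was 1.98 in replicate 3 and -0.80 in replicate 4. The fast myosin gene myhz1.3 stood at 225 and 0.143 CPM in the cyclopamine libraries against 20.9 and 38.2 CPM in the untreated libraries, and the actin gene actc1b at 389 and 3.71 CPM against 83.2 and 103 CPM. The largest ratios of cyclopamine replicate 3 to replicate 4 belonged to myhz1.3, tyrp1b, tnnc2, aldoab, actc1b, fkbp2, ccne2, igfbp5b, timm10 and slc2a15a. Of these tyrp1b, tnnc2, aldoab, fkbp2, ccne2, timm10 and slc2a15a had 0 counts in cyclopamine replicate 4. tyrp1b, a melanin synthesis gene, is an example of such a zero within the pigment lists, with 122 and 0 CPM in the cyclopamine libraries against 172 and 187 CPM in the untreated libraries.

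A small group of muscle genes nevertheless lay above in both cyclopamine libraries. Of 34 tested sarcomere genes 10 lay above and 4 below, against backgrounds of 16.3% and 18.8%. In cyclopamine replicate 3 alone 27 lay above both untreated libraries, where 38.6% of all tested genes did. In cyclopamine replicate 4 alone 11 did, near the 35.8% of all tested genes, and 13 lay below. The median log2 ratio of sarcomere genes to the untreated mean was 1.95 in replicate 3 and -0.80 in replicate 4. DESeq2 called 4 sarcomere genes higher and 0 lower. The giant sarcomere protein gene neb stood at 73.4 and 30.6 CPM in the cyclopamine libraries against 9.72 and 6.97 CPM in the untreated libraries (log2 fold change 2.64 ± 0.58 (SE), edgeR adjusted p = 0.627; DESeq2 adjusted p = 0.000281). The calcium release channel gene ryr1b, of the fast muscle list, stood at 43.4 and 30.0 CPM in the cyclopamine libraries against 5.13 and 7.92 CPM in the untreated libraries (log2 fold change 2.49 ± 0.46 (SE), edgeR adjusted p = 0.529; DESeq2 adjusted p = 0.00022). The muscle caveolin gene cav3 had 11.1 and 17.3 CPM in the cyclopamine libraries and 0 counts in both untreated libraries (DESeq2 adjusted p = 7.61e-08). These genes were higher in both cyclopamine libraries although most fast muscle genes were not high in replicate 4. The slow myosin gene smyhc1, which in zebrafish depends on Hedgehog signals to adaxial cells, lay the other way, with 0.947 and 0 CPM in the cyclopamine libraries against 47.2 and 59.4 CPM in the untreated libraries (DESeq2 adjusted p = 4.65e-10). Of 5 tested slow muscle genes 2 lay below and 0 above, and the part of slow muscle cells in these values was not tested.

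Endothelial genes were lower mainly in cyclopamine replicate 3, and myeloid genes in both cyclopamine libraries. Of 18 endothelial genes 14 lay below both untreated libraries in cyclopamine replicate 3 alone, where 31.8% of all tested genes did. In cyclopamine replicate 4 alone 8 did, near the 44.3% of all tested genes, and 7 lay below in both, against 18.8%. The median log2 ratio of these genes to the untreated mean was -2.14 in cyclopamine replicate 3 and -0.04 in replicate 4. The scavenger receptor gene stab2 stood at 52.1 and 288 CPM in the cyclopamine libraries against 392 and 363 CPM in the untreated libraries, and the endothelial cadherin gene cdh5 at 10.3 and 59.6 CPM against 56.8 and 58.1 CPM. The endothelial selectin gene sele had 0 counts in both cyclopamine libraries and 23.9 and 43.8 CPM in the untreated libraries (DESeq2 adjusted p = 1.01e-08). Of 10 myeloid genes 7 lay below and 0 above, with 2 at 0 in cyclopamine replicate 3 and 7 at 0 in replicate 4. The leukocyte gene lcp1 stood at 12.2 and 0.190 CPM in the cyclopamine libraries against 13.9 and 103 CPM in the untreated libraries, so the untreated libraries also differed. The part of endothelial and blood cells in the values of other genes was not tested. Of 24 epidermal genes 12 were at 0 in cyclopamine replicate 4, 1 lay above and 6 below. The keratin gene krt4 stood at 780.1 and 53.6 CPM in the cyclopamine libraries against 329 and 208 CPM in the untreated libraries.

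**Figure D5:**
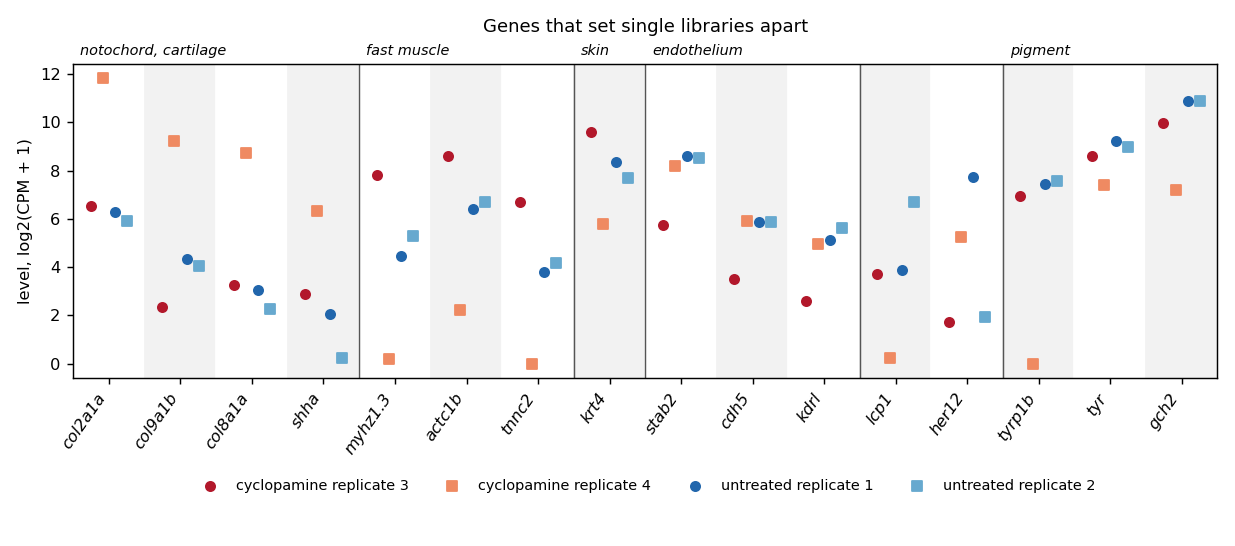
Level of 16 genes, as log2(CPM + 1), 1 point per library, with cyclopamine replicates 3 and 4 in red and orange and untreated replicates 1 and 2 in dark and light blue. Notochord and cartilage genes are highest in cyclopamine replicate 4, fast muscle genes and krt4 in cyclopamine replicate 3, endothelial genes are lowest in cyclopamine replicate 3, and her12 is highest in untreated replicate 1.

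The genes with the widest gap between the groups, among those with a mean of at least 10 CPM in the higher group, included many with zeros. On the higher side these were dhrs11b, cav3, loxl1, ehd2b, foxa3, map1lc3cl, FOXN2, sema5bb, prtga and fstl1a. Of them cav3, loxl1, ehd2b, map1lc3cl, FOXN2 and sema5bb had 0 counts in both untreated libraries. The dehydrogenase gene dhrs11b stood at 17.9 and 19.8 CPM in the cyclopamine libraries against 0.529 and 0.417 CPM in the untreated libraries (DESeq2 adjusted p = 0.000102), and the matrix cross-linking enzyme gene loxl1 at 9.79 and 80.7 CPM in the cyclopamine libraries. The endoderm forkhead gene foxa3 stood at 15.4 and 12.9 CPM in the cyclopamine libraries against 0.740 and 0 CPM in the untreated libraries, and prtga, which encodes an immunoglobulin family protein of early axial tissue, at 12.1 and 41.6 CPM against 0 and 1.07 CPM.

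On the lower side they were sele, smyhc1, ctps1b, rbp4l, ACTC1, pdgfc, itga2.3, rabgef1l, slc25a17 and bscl2l. Of them sele, ctps1b, rbp4l, ACTC1 and rabgef1l had 0 counts in both cyclopamine libraries. The nucleotide synthesis gene ctps1b stood at 14.1 and 12.9 CPM and the actin gene listed as ACTC1 at 8.61 and 13.1 CPM in the untreated libraries. bscl2l was found in every library, with 2.84 and 4.42 CPM in the cyclopamine libraries against 34.1 and 36.3 CPM in the untreated libraries (DESeq2 adjusted p = 0.031). The peroxisomal carrier gene slc25a17 stood at 0.135 and 0.0476 CPM in the cyclopamine libraries against 7.19 and 16.7 CPM in the untreated libraries, and the integrin gene itga2.3 at 0.586 and 0 CPM against 12.1 and 17.1 CPM. For both genes the cyclopamine values lay in the range where zeros are common.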

How the data were processed

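Per the labels' protocols, RNA of sorted cells was sequenced with a stranded Illumina kit as paired reads, and the authors deposited raw read counts per gene. The submitters' processing notes name STAR, featureCounts, Subread and DESeq2 without versions. Not given in the sources used here were the genome build, annotation and strand setting. Reads of overlapping or antisense genes and of near-identical copies may therefore be split. The authors' deposited table of log2 normalized expression was not used. No coordinates or sequences were drawn, since the build is not stated.

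Genes with at least 10 counts in 2 or more of the 4 neural crest libraries were tested with edgeR 4.0.16 (TMM scaling, quasi-likelihood test, R 4.3.3) on all 6 libraries in 3 groups, which share 1 estimate of the spread, and p-values were adjusted over all 15419 genes by Benjamini-Hochberg. Levels are counts per 1000000 of the TMM-scaled library size. DESeq2 1.42.0, limma 3.58.1 (voom with quality weights), other scalings, other filters, other pseudocounts than 1 CPM and each library left out were alternatives. The scripts were tested on simulated data with less spread between libraries than these data have, which does not show how many changes could be found here. Floors, the levels still possible where no count was found, cover counting error only. Standard errors (SE) go with the edgeR quasi-likelihood test and include its estimate of the spread between libraries.

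The genes compared and the 43 gene lists were chosen with earlier results of these data known. Of 1050 list entries 13 matched no gene and 1 matched by an older symbol. Genes named by rule were sox10, prdm1a, Hedgehog targets, smo, gli2a, gli3, cdon and boc; up to 10 per direction with the largest fitted change among called genes (edgeR called none); the 10 per direction with the widest gap between groups, with a mean of at least 10 CPM in the higher group; up to 4 per list; and the 10 per direction with the largest ratio between the cyclopamine libraries. Other genes named were chosen after their values were seen. Some genes, among them one of the rule, are not reported here.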

Additional observations from a re-analysis of the deposited data

How the results depend on the processing

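limma-voom called 0 genes in each direction, and so did edgeR under the other scalings, the filter of 50 counts, the looser filterByExpr (17701 genes), and the fit on the 4 neural crest libraries. DESeq2 called 142 higher and 141 lower, and edgeR without a filter on low counts called 5 and 10. With 1 library left out, the counts ran between 0 and 280 higher and between 0 and 778 lower, with every call made without cyclopamine replicate 3. Genes whose remaining cyclopamine libraries all lay above the remaining untreated libraries then numbered 3782 to 5945, and those below 4652 to 6836. With fewer libraries this criterion is easier to meet, so a rise in these counts is built in. This comparison with libraries left out was chosen after seeing the data.

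Of 126 named genes 58 passed the threshold under DESeq2 and 7 under edgeR without a filter. Over all tested genes DESeq2 called 0.921% higher and 0.914% lower. Many of the named genes were chosen by their values, so these counts do not show how far the results hold. With 1 library left out, the log2 fold change of ptch1 ran from -0.59 (without cyclopamine replicate 4) to 0.10 (without cyclopamine replicate 3), that of sox10 from -0.32 to 0.33 and that of prdm1a from -0.45 to 0.56, with the lower end without cyclopamine replicate 4 and the upper end without cyclopamine replicate 3. The cause was not tested.

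Counts of genes at least 4-fold apart depended on the pseudocount. With 0.5 CPM, cyclopamine replicate 3 was above the untreated mean for 620 genes and below for 892, and untreated replicate 2 was above replicate 1 for 951 and below for 1099. With 5 CPM, cyclopamine replicate 3 was above for 38 and below for 52, cyclopamine replicate 4 above for 182 and below for 339, cyclopamine replicate 4 above replicate 3 for 257 and below for 483, and untreated replicate 2 above replicate 1 for 11 and below for 21.

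No paired analysis was possible because the groups compared share fewer than 2 replicate numbers. Levels of a few CPM were the least certain; the library with the most zeros, cyclopamine replicate 4, had a larger total count than either untreated library.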

Other observations

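The untreated libraries also differed from each other, at least 4-fold (CPM + 1) upward for 468 genes (3.04%) and downward for 545 (3.53%) in replicate 2. The following genes are examples. her12, a Hairy-related Notch effector of the presomitic mesoderm, stood at 212 CPM in untreated replicate 1 and 2.86 CPM in untreated replicate 2, and her9 at 488 CPM and 58.4 CPM. The leukocyte gene lcp1 stood at 13.9 CPM in untreated replicate 1 and 103 CPM in untreated replicate 2.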
